A study of Arabidopsis thaliana with 8 samples.

Results

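The Al response of roots was compared between wild type and cml24-2 in Arabidopsis thaliana, gene by gene, as the log2 fold change with Al against without Al in cml24-2 minus the same fold change in wild type. This interaction difference is negative where a gene responded more negatively in cml24-2 and positive where it responded more positively. All 8 libraries of the series entered it, and every gene with enough counts was included: 20262 of the 24279 genes listed. At a Benjamini-Hochberg adjusted p under 0.05 (edgeR quasi-likelihood test, adjusted over all 20262 genes), 61 genes were called, which is 0.301% of those tested. Of these, 41 (0.202%) had a more negative and 20 (0.0987%) a more positive response in cml24-2.

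The 4 groups were roots of wild type Col given no Al, wild type given 10 µM AlCl3, the cml24-2 mutant line given no Al, and cml24-2 given 10 µM AlCl3, with n = 2 libraries each. Treatment lasted 6 h at pH 5.0 and began on seedlings 6 d old, in nutrient solution. Each treatment used about 500 pooled seedlings, and cml24-2 is 1 line whose kind of allele is not stated in the labels. Whether replicate libraries came from separate cultures is not stated either, so every p-value reflects the spread between these libraries alone.

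Aluminium becomes soluble as a trivalent cation in acid solution, binds the cell wall and plasma membrane of root tips, and stops root elongation. Roots respond by releasing organic acids, by modifying and cross-linking the wall, and by inducing detoxifying enzymes and transporters. CML24 encodes a calmodulin-like protein with EF-hand motifs that bind calcium, a messenger whose cytosolic level changes early after many stresses, and a genotype by treatment interaction asks whether a response differs between the mutant and the wild type, not whether it occurs.

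CML24 (AT5G37770) itself was at 43.5 and 102 CPM (counts divided by the normalized library total and scaled alike in all libraries) in wild type without Al, 43.3 and 39.3 CPM with Al, 189 and 118 CPM in cml24-2 without Al, and 132 and 95 CPM with Al. The libraries labelled cml24-2 were therefore not below those of wild type, and with the kind of allele not given, RNA level is no check of the genotype labels. Its interaction difference was 0.38 (SE 0.50, edgeR adjusted p = 0.82). Library totals ran from 11743400 to 12188900 expected counts, which puts 3 counts at 0.246 to 0.255 CPM. The wild-type libraries without Al differed most from each other (median absolute log2 difference over genes 0.191, against 0.134 to 0.154 in the other groups).

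Across the 61 genes, the usual pattern was a smaller response in cml24-2 in the same direction as in wild type. Of the 41 genes with a more negative response, 23 rose with Al in both genotypes, 8 rose in wild type and did not pass in cml24-2, 6 rose in wild type and fell in cml24-2, 3 fell in cml24-2 and did not pass in wild type, and 1 fell in both. Of the 20 genes with a more positive response, 12 fell in both genotypes, 5 fell in wild type and did not pass in cml24-2, 2 fell in wild type and rose in cml24-2, and 1 rose in cml24-2 and did not pass in wild type. Over all genes tested, 51% were called in wild type (25.1% rose and 25.9% fell) and 44.6% in cml24-2 (21.3% rose and 23.3% fell). These single responses use the same libraries as the interaction and were used to place each gene, not as separate support.

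The genotypes differed mostly without Al among the genes with a more negative response. Without Al, 38 of these 41 were higher in cml24-2, against 7.41% of all genes, and none was lower, against 5.5%. With Al, 7 of the 41 were higher, against 4.63% of all genes, and 10 were lower, against 3.39%. In either direction, 12.9% of all genes were called between the genotypes without Al and 8.02% with Al. The genotype difference was larger in size without Al than with Al in 35 of the 41, in 10 of the 20 genes of the opposite direction, and in 53.1% of all genes. Among those 20, 14 were lower in cml24-2 without Al, and with Al 12 were higher and 1 was lower. The interaction difference equals the genotype difference with Al minus that without Al, and both use the same libraries. Choosing genes by a negative one favours genes higher in cml24-2 without Al, and choosing by a positive one favours lower genes. The placement is therefore a description, and the shares over all genes are no test of it. Median interaction differences were -2.29 for the 41 genes and 1.51 for the 20, and -0.02 over all genes.

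**Figure D1:**
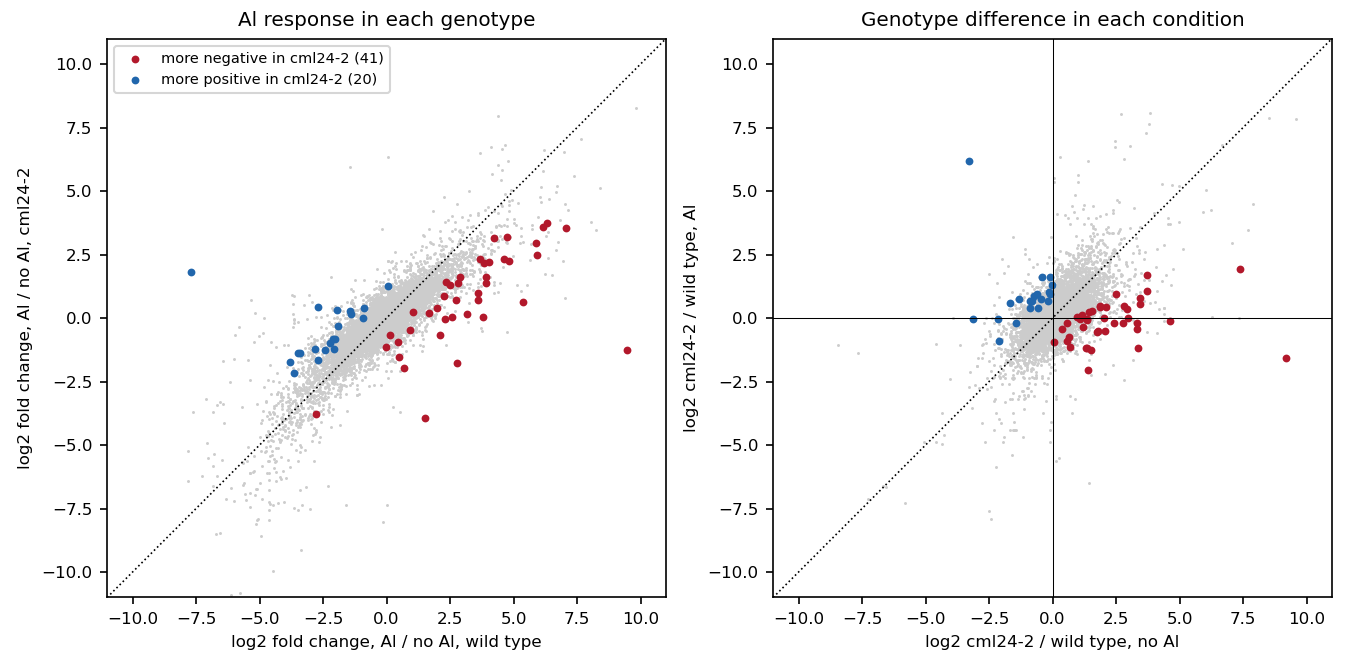
Left, log2 fold change with Al against without Al in wild type (x axis) and in cml24-2 (y axis); right, log2 difference of cml24-2 from wild type without Al (x axis) and with Al (y axis). Grey points are genes tested, of which those beyond 11 on either scale are not drawn, and the dotted line marks equal values: the 41 red genes lie below it and the 20 blue genes above it, with medians of -2.29 and 1.51 from the line.

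How far the calls held depended on the library left out. Dropping either untreated wild-type library (replicate 1 or 2) kept all 61 calls. Dropping wild type with Al left 11 calls (replicate 1) or 16 calls (replicate 2), dropping untreated cml24-2 left 27 or 23, and dropping cml24-2 with Al left 22 or 12, in the same order of replicates. None of the 61 changed sign in any of the 15 alternatives, and 9 were called in all of them: AATP1, AT4G36430, GSTU22, BGLU25, GA2OX2, AT2G18193, AT1G16850, AT5G13210 and EMB1030, each with a more negative response. For most of the other genes the number of alternatives that ended the call is given below.

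AATP1 (AT5G40010), which encodes a mitochondrial AAA-type ATPase, was at 3.41 and 3.63 CPM in wild type without Al and 247 and 264 CPM with Al, and at 19.3 and 18.1 CPM in cml24-2 without Al and 243 and 209 CPM with Al. The groups without Al did not overlap, while those with Al lay close together. Its log2 fold change with Al was 6.18 in wild type and 3.60 in cml24-2, an interaction difference of -2.58 (SE 0.17, edgeR adjusted p = 8.0e-04).

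GSTU22 (AT1G78340), a tau-class glutathione transferase of the kind that conjugates electrophiles to glutathione, likewise differed between the genotypes without Al and lay close together with it. It stood at 1.59 and 2.89 CPM in wild type without Al, 131 and 136 CPM with Al, 15.7 and 19.2 CPM in cml24-2 without Al, and 135 and 136 CPM with Al. All 4 libraries with Al were within a few CPM of each other, and the gap lay without Al, where the genotypes differed by 2.96 on the log2 scale. The interaction difference was -2.95 (SE 0.26, edgeR adjusted p = 0.0026). Among the 26 tested genes of a list for glutathione transferases and oxidative stress, GSTU22 was the only call, where 0.301% of all genes were called. GSTF2 (-1.47, adjusted p = 0.052), whose counts were partly shared with other genes, and GSTU8 (-1.19, adjusted p = 0.089) did not pass, and the median of the list was -0.33.

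AT2G18193, annotated as a P-loop nucleoside triphosphate hydrolase, was at 7.54 and 6.03 CPM in wild type without Al and 78.7 and 87.4 CPM with Al, against 78.3 and 69.5 CPM in cml24-2 without Al and 121 and 123 CPM with Al. Untreated cml24-2 was thus at about the level of wild type with Al. The interaction difference was -2.89 (SE 0.17, edgeR adjusted p = 4.0e-04), with counts partly shared with other genes in 4 libraries. A second gene annotated to the same superfamily, AT5G17760, rose from 23.6 and 22.6 to 425 and 432 CPM in wild type and from 51.2 and 52.4 to 474 and 449.8 CPM in cml24-2 (-1.06, SE 0.13, adjusted p = 0.014, not called in 6 of 15 alternatives).

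UGT74E2 (AT1G05680), a glucosyltransferase that acts on the auxin indole-3-butyric acid, went in opposite directions. It was at 0.555 and 0.826 CPM in wild type without Al, 5.23 and 4.33 CPM with Al, 4.19 and 10.2 CPM in cml24-2 without Al, and 1.93 and 2.26 CPM with Al. Its counts were partly shared in 4 libraries. The rise with Al in wild type was 2.78 on the log2 scale (adjusted p = 0.0019) and the change in cml24-2 was -1.78 (adjusted p = 0.0071), so the interaction difference was -4.56 (SE 0.66, edgeR adjusted p = 0.033, not called in 6 of the 14 alternatives that gave an adjusted p, and -2.52 with limma on log2(FPKM + 1)). Of 16 tested genes on a list of mitochondrial retrograde stress genes, UGT74E2 was the only call, against 0.301% of all genes called. The transcription factor gene NAC013 (-0.71, adjusted p = 0.081) and the alternative oxidase gene AOX1A (-0.62, adjusted p = 0.22) did not pass, and the list's median was -0.24.

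AT2G04050, of the MATE efflux family, was at 0.317 and 0.165 CPM in wild type without Al and 0.829 and 0.606 CPM with Al, but at 36.6 and 48.6 CPM in cml24-2 without Al and 3.10 and 2.51 CPM with Al. The highest libraries were those of untreated cml24-2, and the level fell there with Al (log2 fold change -3.92, adjusted p = 2.2e-06), while the wild-type response did not pass (1.53, adjusted p = 0.057). Its interaction difference was -5.45 (SE 0.64, edgeR adjusted p = 0.011, not called in 3 alternatives, and -3.51 with limma on log2(FPKM + 1)), with counts partly shared in 5 libraries. ABCB11 (AT1G02520), an ATP-binding cassette transporter, rose from 42.9 and 50.3 to 323 and 377 CPM in wild type and from 124 and 149 to 426 and 419 CPM in cml24-2 (-1.28, adjusted p = 0.028, not called in 6 alternatives), with counts partly shared in all 8 libraries.

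The promoters of 4 of these genes are shown because they hold different ones of the short motifs searched. They were chosen after their values were seen. Each runs from 250 bases before the annotated start to 50 bases after it, 5′ to 3′ on the gene's strand, from the RefSeq TAIR10.1 assembly, and capitals mark TGACG (the core of the as-1 element, bound by TGA factors) and the mitochondrial dysfunction motif bound by NAC factors (CTTG and CANG with 5 bases between them), each on either strand. The regions are chr2:7919296-7919595 on the minus strand for AT2G18193, chr1:1704789-1705088 on the minus strand for UGT74E2, chr2:1339419-1339718 on the minus strand for AT2G04050, and chr1:29473954-29474253 on the minus strand for GSTU22.
AT2G18193: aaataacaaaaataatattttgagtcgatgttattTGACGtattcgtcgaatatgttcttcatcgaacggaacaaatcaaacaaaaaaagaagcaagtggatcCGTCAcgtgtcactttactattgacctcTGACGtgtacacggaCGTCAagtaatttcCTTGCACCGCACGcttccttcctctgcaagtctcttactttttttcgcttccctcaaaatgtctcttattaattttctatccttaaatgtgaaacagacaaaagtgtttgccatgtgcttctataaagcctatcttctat
UGT74E2: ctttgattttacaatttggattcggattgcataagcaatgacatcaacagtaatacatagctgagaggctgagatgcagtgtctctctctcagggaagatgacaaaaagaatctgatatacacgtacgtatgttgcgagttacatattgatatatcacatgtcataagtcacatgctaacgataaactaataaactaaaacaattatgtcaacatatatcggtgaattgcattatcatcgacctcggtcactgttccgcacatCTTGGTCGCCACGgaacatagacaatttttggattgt
AT2G04050: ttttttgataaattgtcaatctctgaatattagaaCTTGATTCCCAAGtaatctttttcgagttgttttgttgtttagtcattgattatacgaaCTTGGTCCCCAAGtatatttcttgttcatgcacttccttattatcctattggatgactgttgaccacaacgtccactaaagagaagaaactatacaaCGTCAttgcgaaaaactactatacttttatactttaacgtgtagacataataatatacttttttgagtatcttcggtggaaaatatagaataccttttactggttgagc
GSTU22: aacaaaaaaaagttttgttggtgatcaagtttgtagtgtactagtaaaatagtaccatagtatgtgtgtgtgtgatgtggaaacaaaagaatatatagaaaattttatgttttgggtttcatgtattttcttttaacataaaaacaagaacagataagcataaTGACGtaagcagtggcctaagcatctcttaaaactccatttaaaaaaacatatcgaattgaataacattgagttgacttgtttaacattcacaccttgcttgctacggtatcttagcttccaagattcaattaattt
AT2G18193 held 4 matches to TGACG and 1 to the mitochondrial dysfunction motif, UGT74E2 held 1 of the latter only, AT2G04050 held 1 and 2, and GSTU22 held 1 match to TGACG only. A match is a description of the letters in this window and not of binding.

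Over all promoters of this length, the mitochondrial dysfunction motif was found in 2.27% of 37897 and in 1.75% of the 20190 that belong to genes tested. Among the genes called it was in 5 of the 41 with a more negative response (AT2G04050, AT5G46130, UGT74E2, AT2G18193 and ABCB11) and in 1 of the 20 with a more positive response (AT1G58936). This motif was added after the values were seen. TGACG was in 36.6% of the 41, 10% of the 20, 23.7% of genes tested and 22.6% of all promoters. ACGTG, the core of the abscisic acid response element, was in 43.9%, 35%, 27.8% and 24.6% in that order, and TTGAC, the W-box core bound by WRKY factors, in 65.9%, 65%, 51.5% and 49.5%. The G-box CACGTG contains ACGTG and was in 9.76%, 5%, 8.56% and 6.46%, CGCGT, the core bound by CAMTA calmodulin-binding factors, in 12.2%, 10%, 9.6% and 8.54%, and GCCGCC in none of the 61, 2.66% of genes tested and 2.72% of all promoters. TGACG can overlap ACGTG and TTGAC where the letters run together, as TGACGTG does in AT2G18193.

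AT4G36430 encodes a class III peroxidase, a secreted enzyme that oxidises wall phenolics. It was at 8.17 and 9.0 CPM in wild type without Al, 675 and 683 CPM with Al, 56.9 and 73.7 CPM in cml24-2 without Al, and 879 and 872 CPM with Al. Both groups of cml24-2 lay above the matching wild-type group, although only the difference without Al passed (2.93, adjusted p = 1.7e-05, against 0.37, adjusted p = 0.11, with Al). The interaction difference was -2.56 (SE 0.19, edgeR adjusted p = 0.0013).

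PRX52 (AT5G05340), another class III peroxidase, with a part in lignification, was at 1.19 and 0.413 CPM in wild type without Al, 119 and 103 CPM with Al, 8.71 and 7.56 CPM in cml24-2 without Al, and 98.0 and 94.3 CPM with Al. The wild-type libraries without Al were the lowest and, as a ratio, differed most from each other. Its interaction difference was -3.52 (SE 0.33, edgeR adjusted p = 0.0043, not called in 1 alternative), with counts partly shared in 1 library. The peroxidase gene AT5G39580 went from 26.8 and 34.5 to 207 and 219 CPM in wild type and from 106 and 115 to 265 and 316 CPM in cml24-2 (-1.40, adjusted p = 0.024, not called in 6 alternatives).

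EXT4 (AT1G76930) encodes an extensin, a hydroxyproline-rich glycoprotein that is cross-linked into the wall. Its level was 138 and 184 CPM in wild type without Al, 2101 and 2515 CPM with Al, 655 and 738 CPM in cml24-2 without Al, and 3025 and 3219 CPM with Al. It rose in both genotypes, and the interaction difference was -1.68 (SE 0.22, edgeR adjusted p = 0.020, not called in 6 alternatives). Its counts were partly shared in 5 libraries. AT1G26240, a proline-rich extensin-like gene whose counts were partly shared in all 8 libraries, rose from 58.4 and 105 to 287 and 420.3 CPM in wild type and was at 203 and 264 CPM without Al and 148 and 144 CPM with Al in cml24-2 (-2.79, SE 0.38, adjusted p = 0.024, not called in 6 alternatives). LAC7 (AT3G09220), a putative laccase, rose in wild type from 62.4 and 52.8 to 109 and 112 CPM and fell in cml24-2 from 138 and 153 to 107 and 105 CPM, so that the genotypes were apart without Al and within 105 to 112 CPM with it (-1.40, adjusted p = 0.0073, not called in 4 alternatives).

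**Figure D2:**
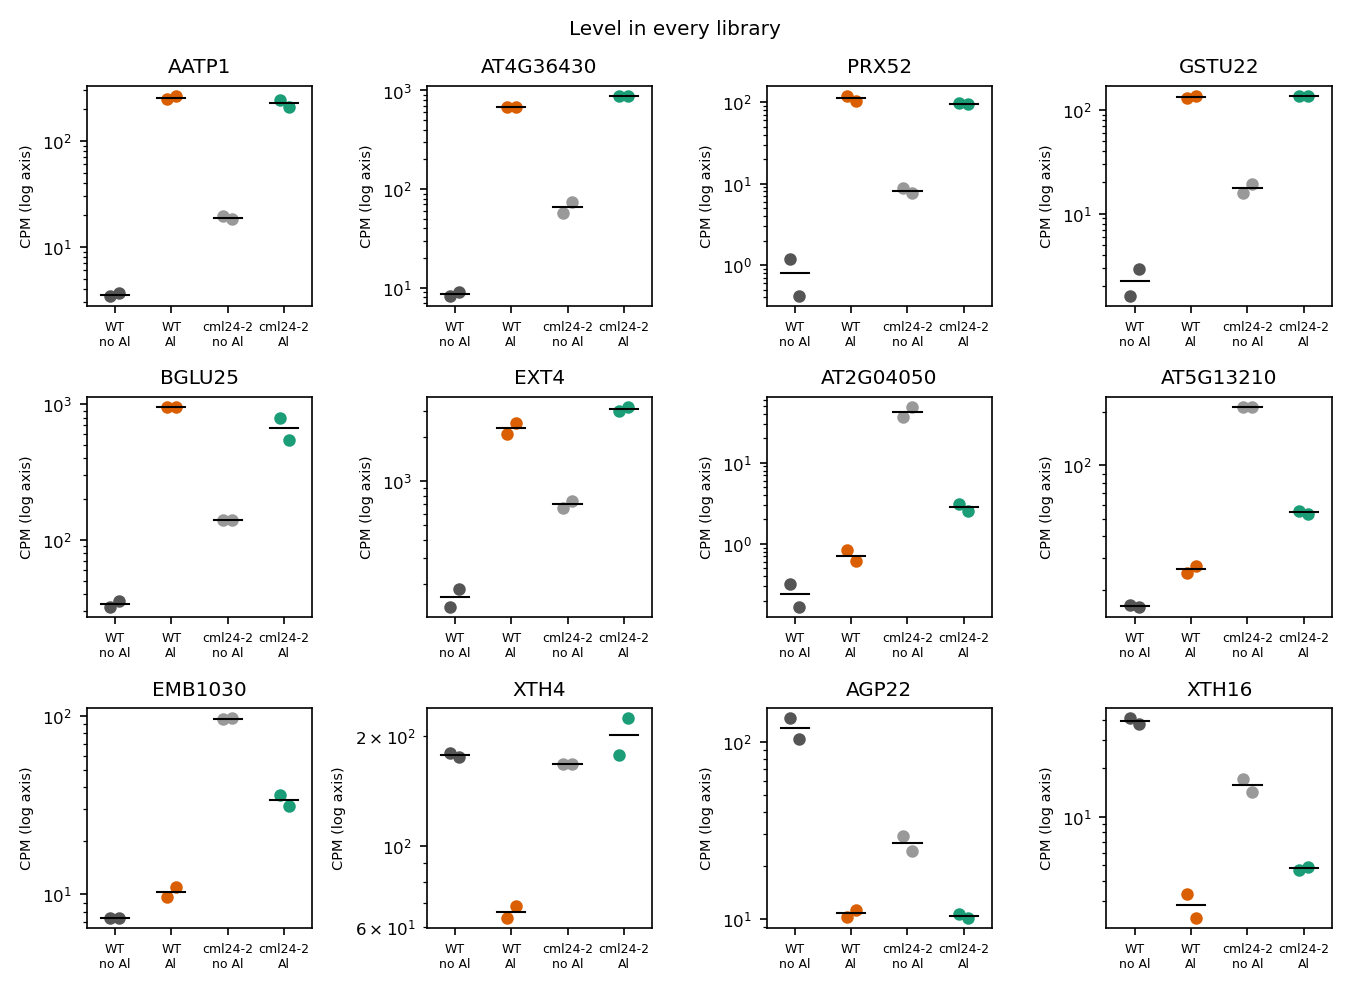
Level in each of the 8 libraries (points) and the mean of each group (lines) for 12 genes called for the interaction, in CPM on log axes that differ between panels. In AATP1, GSTU22 and PRX52 the groups with Al lie together and the groups without Al apart, in AT5G13210 and EMB1030 untreated cml24-2 is the highest group, and in XTH4 wild type with Al (63.5 and 68.4 CPM) lies below the other 3 groups.

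GA2OX2 (AT1G30040), a gibberellin 2-oxidase that inactivates gibberellins, was at 4.52 and 2.81 CPM in wild type without Al, 45.4 and 44.8 CPM with Al, 37.7 and 42.0 CPM in cml24-2 without Al, and 78.8 and 77.5 CPM with Al. Untreated cml24-2 was close to treated wild type, and the mutant was higher in both conditions (log2 3.43, adjusted p = 1.7e-05, without Al and 0.79, adjusted p = 0.011, with Al). The interaction difference was -2.64 (SE 0.22, edgeR adjusted p = 0.0026). NIT2 (AT3G44300), a nitrilase that can form indole-3-acetic acid from its nitrile, rose from 3.49 and 3.55 to 61.3 and 53.4 CPM in wild type and from 5.19 and 6.13 to 26.9 and 25.3 CPM in cml24-2 (-1.82, SE 0.20, adjusted p = 0.0095, not called in 3 alternatives), with counts partly shared in all 8 libraries.

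DREB2B (AT3G11020) and DREB2C (AT2G40340) encode AP2-type factors of the dehydration and heat responses. DREB2B was at 2.46 and 2.48 CPM in wild type without Al, 12.2 and 12.5 CPM with Al, 19.6 and 15.4 CPM in cml24-2 without Al, and 21.5 and 12.7 CPM with Al. It rose in wild type and its response in cml24-2 did not pass (-0.03, adjusted p = 0.93), for an interaction difference of -2.35 (SE 0.37, edgeR adjusted p = 0.049, not called in 7 alternatives). DREB2C rose in both, from 11.8 and 11.5 to 55.7 and 56.6 CPM in wild type and from 30.6 and 29.3 to 61.5 and 47.7 CPM in cml24-2 (-1.40, adjusted p = 0.020, not called in 5). Its counts were partly shared in 5 libraries.

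NAC011 (AT1G32510), a NAC domain gene, was at 0.159 and 0.413 CPM in wild type without Al, 3.82 and 4.33 CPM with Al, 3.43 and 2.44 CPM in cml24-2 without Al, and 3.77 and 2.26 CPM with Al (-3.76, SE 0.60, edgeR adjusted p = 0.0499, not called in 10 of 14 alternatives, and -1.83 with limma on log2(FPKM + 1)). AT3G10113, a homeodomain-like gene, had no counts in wild type without Al, 5.47 and 9.35 CPM with Al, 8.29 and 3.70 CPM in cml24-2 without Al and 2.77 and 2.17 CPM with Al. Expected counts of AT3G10113 were not whole in 6 libraries, so some of its reads also map elsewhere. Whether the assignment of such reads affects its values was not tested. With a floor of 3 counts over both untreated libraries, wild type with Al was at least 59.5-fold higher, and the fitted interaction difference of -10.75 (adjusted p = 0.018, not called in 4 alternatives) depends on how zero counts are treated (-3.73 and -7.08 with limma on log2(FPKM + 1) and log2(FPKM + 0.1)). AT5G46130, of unknown function, had 2 counts in wild type without Al and 89 with Al, a 45.6-fold ratio (95% counting interval 12.2 to 382), against 2.01 and 2.52 CPM without Al and 3.94 and 3.01 CPM with Al in cml24-2 (-4.76, adjusted p = 0.043, not called in 9 of 14). The difference of AT5G46130 was -7.86 without wild-type control replicate 1 and -1.39 with limma on log2(FPKM + 1). AT1G08910, an SP-RING protein of the sumoylation machinery, rose from 23.2 and 24.7 to 137 and 133 CPM in wild type and from 58.4 and 69.9 to 156 and 159 CPM in cml24-2 (-1.20, adjusted p = 0.015, not called in 5).

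BGLU25 (AT3G03640), a beta-glucosidase, was at 31.8 and 35.3 CPM in wild type without Al, 954 and 957 CPM with Al, 140.5 and 141 CPM in cml24-2 without Al, and 794 and 548 CPM with Al. The genotypes differed without Al (2.07, adjusted p = 2.9e-04), and with Al the difference of -0.51 did not pass (adjusted p = 0.081). The interaction difference was -2.58 (SE 0.23, edgeR adjusted p = 0.0027). CYSA (AT2G40880), an inhibitor of cysteine proteases, rose from 3.41 and 3.14 to 48.7 and 51.2 CPM in wild type and from 10.5 and 11.5 to 39.2 and 29.3 CPM in cml24-2 (-2.29, SE 0.24, adjusted p = 0.0066, not called in 2).

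The subtilase gene AT4G10510, with counts partly shared in 7 libraries, rose in wild type from 2.86 and 6.19 to 43.6 and 36.6 CPM and was at 27.0 and 35.0 CPM without Al and 37.7 and 32.0 CPM with Al in cml24-2, where the response did not pass (-2.98, SE 0.36, edgeR adjusted p = 0.014, not called in 6 alternatives). NANA (AT3G12700), an aspartic protease of chloroplasts, rose from 11.6 and 16.4 to 354 and 384 CPM in wild type and from 32.7 and 30.6 to 293 and 291 CPM in cml24-2 (-1.52, adjusted p = 0.020, not called in 6). In both genes the genotypes were apart without Al and not called apart with it.

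A small set was highest in untreated cml24-2 and fell there with Al. AT5G13210, a conserved gene of unknown function, had the smallest interaction p. It was at 16.3 and 15.9 CPM in wild type without Al, 24.8 and 27.2 CPM with Al, 213 and 213 CPM in cml24-2 without Al, and 55.7 and 53.0 CPM with Al. No groups overlapped, and replicates lay within a few CPM. It rose in wild type (0.69, adjusted p = 3.6e-04) and fell in cml24-2 (-1.97, adjusted p = 1.2e-06), an interaction difference of -2.66 (SE 0.13, edgeR adjusted p = 1.5e-04).

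EMB1030 (AT5G22800), an alanyl-tRNA synthetase needed for embryo development, had the same order. Its values were 7.38 and 7.35 CPM in wild type without Al, 9.62 and 11 CPM with Al, 96.0 and 97.5 CPM in cml24-2 without Al, and 36.2 and 31.2 CPM with Al. It was higher in cml24-2 in both conditions, and the interaction difference was -2.01 (SE 0.17, edgeR adjusted p = 0.0026). AT1G30700, a berberine-bridge-like FAD oxidoreductase, was at 80.0 and 68.2 CPM in untreated cml24-2 and between 31.5 and 37.7 CPM in the other 6 libraries (-1.11, adjusted p = 0.039, not called in 9). AT2G39375 (-0.79, adjusted p = 0.049, not called in 11) and AT4G04990 (-1.39, adjusted p = 0.035, not called in 8), neither of known function, also fell in cml24-2 with Al.

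The remaining genes with a more negative response held little known function. AT1G16850, uncharacterised, was at 4.20 and 4.29 CPM in wild type without Al, 27.5 and 23.6 CPM with Al, 10.0 and 11.9 CPM in cml24-2 without Al, and 11.7 and 10.7 CPM with Al. It rose in wild type and did not pass in cml24-2 (0.03, adjusted p = 0.89), and with Al it was lower in the mutant (-1.19, adjusted p = 0.0032), for an interaction difference of -2.56 (SE 0.22, edgeR adjusted p = 0.0026). AT1G75600, a histone gene, rose from 0.317 and 0.248 to 19.2 and 16.3 CPM in wild type and from 0.754 and 0.756 to 4.36 and 4.18 CPM in cml24-2 (-3.44, SE 0.47, adjusted p = 0.024, not called in 6), so that the genotypes differed with Al (-2.05, adjusted p = 7.7e-04). Its wild-type libraries without Al held only 4 and 3 counts, so the size of the interaction difference is not firm.

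AT4G33666 (-2.52), AT5G16010 of the steroid dehydrogenase family (-2.30), AT5G10695 (-2.0), the formin AT3G07540 (-1.56), At17.1 (AT2G01340, -1.38) and TRM19 (AT3G53540, -0.90) rose in both genotypes, more in wild type. The DnaJ-domain gene AT2G17880 (-1.49) and AT5G11090 (-0.82), with counts partly shared in all 8 libraries, rose in wild type and did not pass in cml24-2. The kinase-like gene AT3G46280, with counts partly shared in 3 libraries, was the only one of the 41 that fell in both. It went from 354 and 389.9 to 53.5 and 55.9 CPM in wild type and from 363 and 415 to 26.1 and 30.3 CPM in cml24-2 (-1.02, SE 0.16, edgeR adjusted p = 0.049, not called in 9 alternatives).

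**Figure D3:**
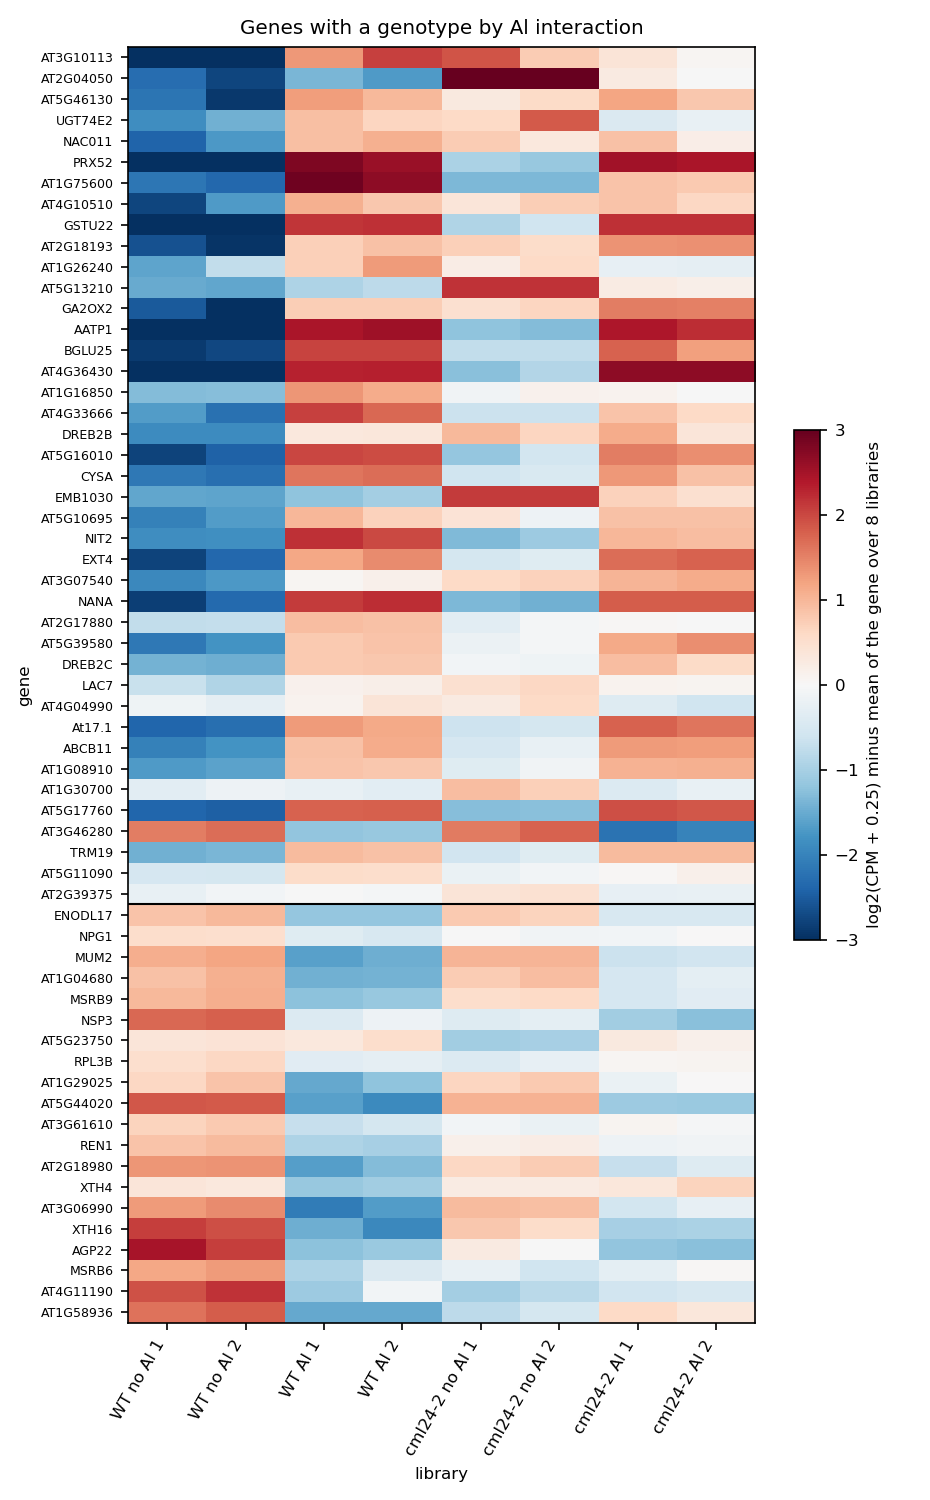
Level of each of the 61 genes (rows, ordered by interaction difference from -10.75 at the top to 9.49 at the bottom) in each library (columns), as log2(CPM + 0.25) minus the gene's mean over the 8 libraries, with the colour scale ending at 3 in either direction. Above the black line are the 41 genes with a more negative response, most of them darkest blue in wild type without Al, and below it the 20 with a more positive response, most of them darkest red in wild type without Al.

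Among the 20 genes with a more positive response, XTH4 (AT2G06850) and XTH16 (AT3G23730) encode xyloglucan endotransglucosylase/hydrolases, which cut and rejoin the xyloglucan chains that tether cellulose. XTH4 was at 179.8 and 175 CPM in wild type without Al, 63.5 and 68.4 CPM with Al, 168 and 168 CPM in cml24-2 without Al, and 178 and 224 CPM with Al. It fell in wild type (-1.43, adjusted p = 1.8e-05), did not pass in cml24-2 (0.26, adjusted p = 0.093), and the genotypes were not called apart without Al (-0.08, adjusted p = 0.68). The interaction difference was 1.69 (SE 0.17, edgeR adjusted p = 0.0053), lost in 1 alternative.

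XTH16 fell from 41.2 and 37.6 to 3.32 and 2.34 CPM in wild type and from 17.2 and 14.3 to 4.70 and 4.85 CPM in cml24-2 (2.07, SE 0.26, edgeR adjusted p = 0.015, not called in 5). AGP22 (AT5G53250), an arabinogalactan peptide of the cell surface, fell from 136 and 103 to 10.3 and 11.2 CPM in wild type and from 29.3 and 24.2 to 10.7 and 10.1 CPM in cml24-2. All 4 libraries with Al lay between 10.1 and 11.2 CPM, and without Al wild type was the higher (2.12, SE 0.23, adjusted p = 0.0086, not called in 4). Of 30 tested genes on a list of xyloglucan, expansin and extensin genes, XTH4, XTH16 and EXT4 were called, against 0.301% of all genes. The list's median was 0.12. XTH17 on that list (2.41, adjusted p = 0.065, counts partly shared in all 8 libraries) did not pass.

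MUM2 (AT5G63800), a beta-galactosidase that trims pectin side chains in seed mucilage, fell from 71.3 and 75.5 to 10.5 and 11.9 CPM in wild type and from 68.1 and 67.5 to 21.3 and 22.2 CPM in cml24-2 (1.08, SE 0.14, edgeR adjusted p = 0.020, not called in 6 alternatives). AT1G04680, a pectin lyase-like gene, fell from 96.5 and 109.8 to 19.1 and 19.3 CPM and from 89.1 and 99.9 to 36.6 and 42.4 CPM in the same order (1.17, adjusted p = 0.026, not called in 6). For both, the genotype difference did not pass without Al, and cml24-2 was the higher with Al. The peroxidase gene AT2G18980 fell from 166 and 168 to 20.9 and 26.6 CPM in wild type and from 103 and 112 to 41.1 and 50.7 CPM in cml24-2 (1.58, SE 0.19, adjusted p = 0.014, not called in 4), with counts partly shared in 2 libraries.

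AT4G11190, of the dirigent-like family that guides coupling of phenolic radicals, fell in wild type from 12.5 and 15.0 to 1.33 and 2.94 CPM and was at 1.42 and 1.68 CPM without Al and 2.01 and 2.17 CPM with Al in cml24-2 (3.12, SE 0.48, edgeR adjusted p = 0.043, not called in 5). It was thus low in 6 of the 8 libraries. On a list of 24 tested phenylpropanoid and lignin genes, the only call was PRX52, against 0.301% of all genes called. F5H, the ferulate 5-hydroxylase of syringyl lignin, did not pass (1.71, adjusted p = 0.052). That list's median was 0.04.

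AT1G29025, an EF-hand calcium-binding gene, was at 68.6 and 80.8 CPM in wild type without Al, 15.1 and 19.1 CPM with Al, 68.8 and 77.0 CPM in cml24-2 without Al, and 38.7 and 44.6 CPM with Al. The groups without Al overlapped, and with Al cml24-2 was the higher (1.28, adjusted p = 0.0029), for an interaction difference of 1.32 (SE 0.20, edgeR adjusted p = 0.039, not called in 7). NPG1 (AT2G43040), a calmodulin-binding protein known from pollen, fell in wild type from 33.6 and 32.9 to 18.1 and 16.5 CPM and was at 21.4 to 23.2 CPM in all 4 libraries of cml24-2 (0.96, adjusted p = 0.046, not called in 9).

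The remorin gene AT5G23750, of a family of plasma membrane nanodomain proteins, was at 21.9 to 25.2 CPM in wild type in both conditions and rose in cml24-2 from 8.29 and 8.57 to 21.5 and 19.4 CPM (1.23, SE 0.17, adjusted p = 0.027, not called in 7). It was the only gene of the 61 that rose in cml24-2 without passing in wild type.

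MSRB9 (AT4G21850) and MSRB6 (AT4G04840) encode methionine sulfoxide reductases, which repair oxidised methionine. MSRB9 fell from 374 and 405 to 81.0 and 86.1 CPM in wild type and from 275 and 289 to 133 and 149 CPM in cml24-2 (1.22, SE 0.14, edgeR adjusted p = 0.011, not called in 5). MSRB6 fell in wild type from 12.5 and 13.5 to 2.74 and 3.98 CPM and was at 4.61 and 3.53 CPM without Al and 4.44 and 5.60 CPM with Al in cml24-2 (2.26, SE 0.33, adjusted p = 0.033, not called in 7). The genes for the acid phosphatase AT5G44020 (1.48, adjusted p = 0.0066, not called in 1), the nitrile specifier NSP3 (AT3G16390, 1.22), which directs glucosinolate breakdown, ENODL17 (AT5G15350, 0.88) and AT3G06990 (2.06) fell in both genotypes, more in wild type. NSP3 had counts partly shared in 7 libraries and AT3G06990 in all 8.

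RPL3B (AT1G61580), a ribosomal protein gene, fell in wild type from 43.5 and 47.3 to 24.1 and 25.4 CPM and rose in cml24-2 from 22.9 and 25.8 to 31.8 and 32.7 CPM (1.28, SE 0.15, edgeR adjusted p = 0.011, not called in 5). The galactose mutarotase-like gene AT3G61610 (1.55) fell in wild type and did not pass in cml24-2. AT1G58936, annotated to the inositol-pentakisphosphate 2-kinase family, was at 1.98 and 2.31 CPM in wild type without Al and had no counts with Al, at least 17.2-fold lower by a floor of 3 counts over both treated libraries, while cml24-2 was at 0.167 and 0.252 CPM without Al and 0.838 and 0.669 CPM with Al. Its fitted difference of 9.49 (adjusted p = 0.015, not called in 6 of 13 alternatives) depends on how zero counts are treated (1.71 and 5.26 with limma on log2(FPKM + 1) and log2(FPKM + 0.1)), and its counts were partly shared in 5 libraries.

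At the threshold, the last genes called were AT3G46280 (adjusted p = 0.0485), AT2G39375 (0.0491) and NAC011 (0.0499), and the first not called were MLO12 (-1.06), AT5G24200 (3.68), GSTF2 (-1.47), AT3G45070 (1.34) and CEP2 (0.97), each at an edgeR adjusted p of 0.0517. These differ little across the threshold. At an unadjusted p under 0.05, 2513 genes passed.

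The aluminium resistance genes had no call among 22 tested, where 0.301% of all genes were called, with a median interaction difference of -0.21. ALMT1 (AT1G08430), the malate channel of Al exclusion, was at 0.793 and 1.07 CPM in wild type without Al, 53.2 and 47.0 CPM with Al, 5.86 and 3.19 CPM in cml24-2 without Al, and 54.2 and 48.3 CPM with Al. The shape was that of GSTU22, and the interaction difference of -2.24 (SE 0.40, edgeR adjusted p = 0.061) did not pass, though it did in 3 of the 15 alternatives, of which DESeq2 was 1 (adjusted p = 1.4e-04). STOP1, the zinc finger factor that controls ALMT1 (-0.23, adjusted p = 0.53), and the citrate transporter gene MATE (-0.20, adjusted p = 0.72) did not pass in any alternative.

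Calcium-signalling lists held no call either, against the same 0.301% of all genes: 0 of 31 calmodulin and calmodulin-like genes (median 0.16) and 0 of 29 calcium pumps and calcium-regulated kinases (median -0.09). TCH3, a calmodulin-like gene induced by touch, rose in both genotypes, from 39.3 and 58.8 to 1001 and 1005 CPM in wild type and from 163 and 112 to 1088 and 1152 CPM in cml24-2 (interaction difference -1.33, SE 0.29, edgeR adjusted p = 0.11). The calcium pump gene ACA9 had a difference of 1.49 (adjusted p = 0.091).

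Markers of several cell types and of shoot tissue moved with the groups, while those of xylem and phloem did not clearly do so. Root hair markers (22 genes) summed to 1243 and 1690.1 CPM in wild type without Al, 385 and 425 CPM with Al, 904 and 1082 CPM in cml24-2 without Al, and 413 and 392 CPM with Al, so that wild type was the higher without Al and the genotypes overlapped with it, as in AGP22. Endodermis and suberin markers (28 genes) summed to 1688 and 2083 CPM, 3409 and 3681 CPM, 1533 and 1781 CPM, and 2488 and 2309.8 CPM in the same order. Shoot photosynthesis markers (26 genes) summed to 229 and 309.9 CPM, 125 and 61.4 CPM, 375 and 514 CPM, and 233 and 269.8 CPM, so they were lowest in wild type with Al and highest in untreated cml24-2. None of these lists held a called gene, no member of any was at 0 in a whole group, and their part in the results above was not tested. Dividing-cell markers (28 genes) summed to 722 and 766 CPM, 440.1 and 420.1 CPM, 666 and 646 CPM, and 418 and 369 CPM. Root cap markers (12 genes) summed to 283 and 301 CPM, 228 and 222 CPM, 302 and 318 CPM, and 239 and 266 CPM. Xylem and phloem markers (18 genes) stayed between 463 and 567 CPM in all 8 libraries. Chloroplast-encoded genes (42 genes) summed to 441 and 531 CPM, 549 and 984 CPM, 731 and 625 CPM, and 545 and 610.3 CPM. Wild type with Al replicate 2 was thus the highest there and the lowest for shoot photosynthesis markers. In roots taken whole, fewer cells of a type and less RNA per cell cannot be told apart.

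**Figure D4:**
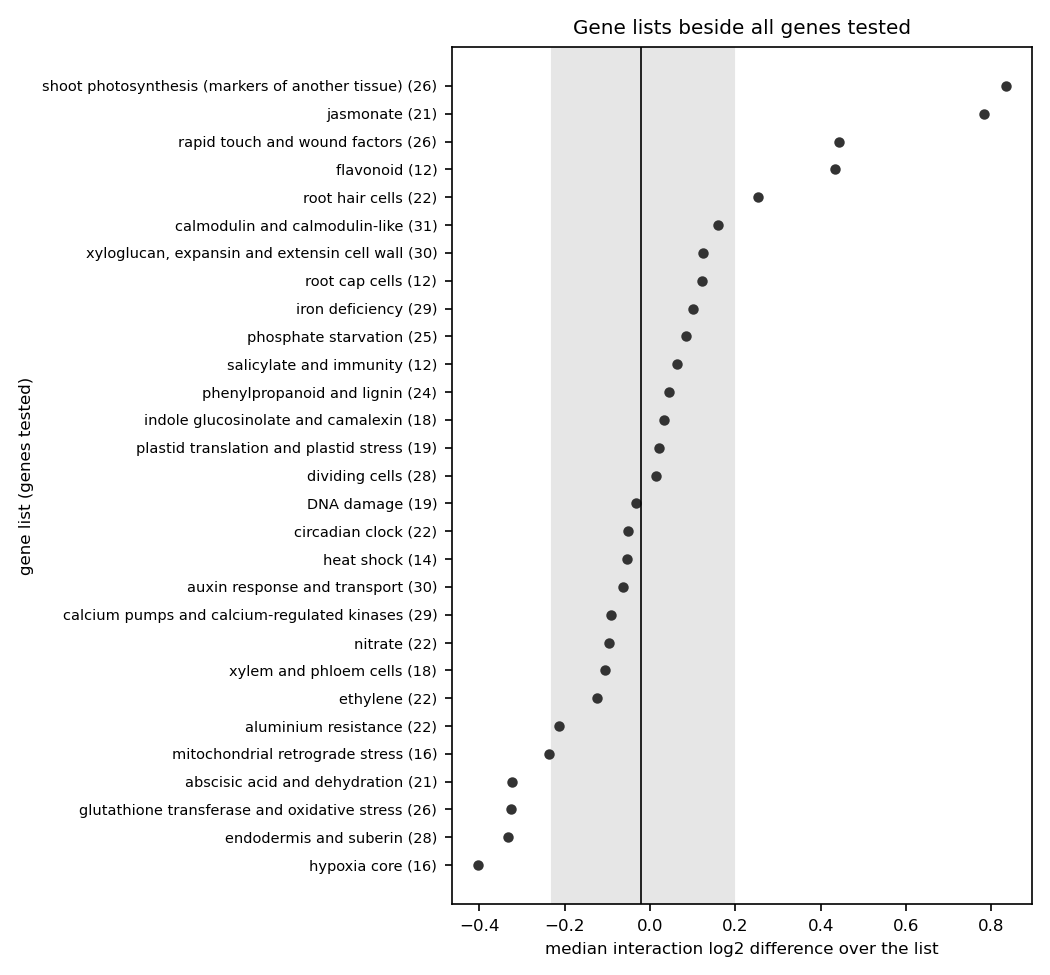
Median interaction log2 difference (x axis) of each of 29 gene lists, with the number of genes tested in brackets; the vertical line is the median of all genes (-0.02) and the grey band their middle quartiles (-0.23 to 0.20). Shoot photosynthesis (0.83) and jasmonate (0.78) lie farthest to the right and hypoxia (-0.40) farthest to the left, and none of these 3 lists held a called gene.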

How the data were processed

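RNA from whole roots of 8 samples was sequenced on the BGISEQ-500 platform, per the labels' protocols. The deposited expected counts are the authors' estimates of reads per gene, for which the submitters' processing notes name RSEM. The authors' deposited FPKM scale them by gene length and library total. Genes under an FPKM of 0.01 are not listed and were taken as 0 counts. The aligner and tool versions are not stated in the sources used here, nor is the build. The listed lengths of all 12101 genes with a single transcript equalled those in RefSeq TAIR10.1, whose annotation matched 24086 of 24279 gene identifiers and gave names and promoters. Of the genes with a count in a library, between 89.1% and 89.5% had an expected count that was whole within 0.005. The others hold a part of reads that map to several genes.

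Expected counts were rounded and fitted in R 4.3.3 with edgeR 4.0.16. Library sizes had TMM factors of 0.984 to 1.03, genes were filtered with filterByExpr, each of the 4 groups had its own mean, and the 8 libraries left 4 residual degrees of freedom (biological coefficient of variation 11%). Quasi-likelihood F tests were adjusted by Benjamini-Hochberg, with calls under 0.05. Standard errors (SE) were derived from the F statistic, and CPM use the normalized library total. Intervals and floors cover counting error only.

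The genes called, the 29 gene lists (629 of 670 distinct genes tested) and the tests were chosen with earlier results of these data known. The rule for named genes took CML24 and the aluminium resistance list. Among called genes whose highest group had an FPKM averaging at least 2, it took the 12 largest differences and the 8 smallest p in each direction and up to 4 of each class of responses. It also took up to 4 genes of each list by smallest p. It holds 35 of the 61 called genes, and the other 26 are named so that each called gene is accounted for.

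The 15 alternatives were DESeq2 1.42.0, RLE factors, no low-count filter, a strict filter (1 CPM in 4 libraries), a replicate block, limma 3.58.1 on log2 FPKM with a pseudocount of 1 or of 0.1 (genes reaching an FPKM of 1 in 2 libraries), and each library left out. Simulated data for the interaction at this depth had 20139 genes in the fit. Of these, 67 were changed 1.5 fold, 67 were changed 2 fold and 66 were changed 4 fold. In that order edgeR recovered 0%, 37.3% and 74.2% of them, with 10 false calls beside those recovered. These false calls were a larger share of all simulated calls than the adjusted p threshold allows. The genes called in the real data may therefore hold more false calls than that threshold states.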

Additional observations from a re-analysis of the deposited data

Results flagged for a closer look

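The response to Al differed between wild type and cml24-2 by the test of the difference itself (edgeR, Benjamini-Hochberg adjusted over 20262 genes) in 20 genes with a more positive and 41 with a more negative response in cml24-2. Each value in brackets is the interaction log2 difference. Of the genes with a more negative response, those that rose in both genotypes were PRX52 (-3.52), AT1G75600 (-3.44), GSTU22 (-2.95), AT2G18193 (-2.89), GA2OX2 (-2.64), AATP1 (-2.58), BGLU25 (-2.58), AT4G36430 (-2.56), AT4G33666 (-2.52), AT5G16010 (-2.30), CYSA (-2.29) and AT5G10695 (-2.0). The same held for NIT2 (-1.82), EXT4 (-1.68), AT3G07540 (-1.56), NANA (-1.52), AT5G39580 (-1.40), DREB2C (-1.40), At17.1 (-1.38), ABCB11 (-1.28), AT1G08910 (-1.20), AT5G17760 (-1.06) and TRM19 (-0.90). Those that rose in wild type and did not pass in cml24-2 were AT5G46130 (-4.76), NAC011 (-3.76), AT4G10510 (-2.98), AT1G26240 (-2.79), AT1G16850 (-2.56), DREB2B (-2.35), AT2G17880 (-1.49) and AT5G11090 (-0.82). Opposite directions were called for AT3G10113 (-10.75), UGT74E2 (-4.56), AT5G13210 (-2.66), EMB1030 (-2.01), LAC7 (-1.40) and AT4G04990 (-1.39), which rose in wild type and fell in cml24-2. A fall in cml24-2 alone was called for AT2G04050 (-5.45), AT1G30700 (-1.11) and AT2G39375 (-0.79), and a fall in both for AT3G46280 (-1.02). Of the genes with a more positive response, those that fell in both genotypes were ENODL17 (0.88), MUM2 (1.08), AT1G04680 (1.17), MSRB9 (1.22), NSP3 (1.22), AT1G29025 (1.32), AT5G44020 (1.48), REN1 (1.57), AT2G18980 (1.58), AT3G06990 (2.06), XTH16 (2.07) and AGP22 (2.12). A fall passed in wild type and no response in cml24-2 for NPG1 (0.96), AT3G61610 (1.55), XTH4 (1.69), MSRB6 (2.26) and AT4G11190 (3.12). RPL3B (1.28) and AT1G58936 (9.49) fell in wild type and rose in cml24-2, and AT5G23750 (1.23) rose in cml24-2 and did not pass in wild type.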

How the results depend on the processing

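No called gene changed sign under any of the 15 alternatives, and 9 were called in all of them. DESeq2 called 74 genes with a more positive and 125 with a more negative response, with 57 of the 61 among them and the other 4 given no adjusted p. Leaving out each library in turn gave 2 to 269 more positive and 10 to 226 more negative calls, with the highest counts without wild-type control replicate 1 (269 and 213) and wild-type control replicate 2 (67 and 226) and the lowest without wild-type Al replicate 1 (2 and 10). The cause was not tested. RLE factors (21 and 38), no filter (20 and 43), a strict filter (19 and 41), limma on log2(FPKM + 1) (28 and 32) and on log2(FPKM + 0.1) (20 and 29) stayed within 1.5 times. The interaction difference of CML24 ran from -0.36 without wild-type control replicate 2, a reversal (edgeR adjusted p = 0.69), to 0.92 without wild-type control replicate 1, and did not pass in any alternative.

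The replicate block gave 19 more positive and 38 more negative calls, 47 of them among the 61. Whether libraries with the same replicate number share a culture or batch is not stated in the labels and was not tested. Correlations of the deviations of same-numbered libraries over the 6 pairs of groups ran from -0.168 to 0.144.

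With n = 2 and a simulated recovery of 37.3% at 2-fold, a gene that did not pass is not shown to respond alike in both genotypes. Genes near 3 counts (0.246 to 0.255 CPM) give no firm fold change.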

Other observations

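The gene lists not described above held no called gene, where 0.301% of all genes were called, and are given by their median interaction difference, beside -0.02 for all genes, of which 52.8% were negative. Jasmonate genes (21 tested) had a median of 0.78, with 16 of 21 positive and 5 negative. The jasmonate gene with the smallest p, CYP94B3, was among the negative ones (-2.29, edgeR adjusted p = 0.11). Rapid touch and wound factors (26 tested) had a median of 0.44, with 18 of 26 positive. MYC2, the bHLH factor of jasmonate signalling, was at 128 and 268 CPM in wild type without Al, 97.4 and 91.9 CPM with Al, 380.5 and 247 CPM in cml24-2 without Al, and 387 and 293 CPM with Al (1.18, SE 0.45, edgeR adjusted p = 0.34). The ethylene response factor gene ERF104 was at 97.8 and 192 CPM, 76.0 and 72.3 CPM, 343 and 295 CPM, and 461 and 401 CPM in the same order (1.40, adjusted p = 0.16). In both genes wild-type control replicate 2 was well above replicate 1, and CML24 had the same order.

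Abscisic acid and dehydration genes (21 tested) had a median of -0.32, with 18 negative, and hypoxia genes (16 tested) a median of -0.40, with 14 negative. RD29A, a dehydration marker, rose from 80.9 and 86.1 to 410.2 and 335 CPM in wild type and from 63.3 and 63.2 to 179.8 and 159 CPM in cml24-2 (-0.73, SE 0.17, edgeR adjusted p = 0.13). PDC1, the pyruvate decarboxylase of fermentation, rose from 4.76 and 7.76 to 27.7 and 32.3 CPM and from 7.62 and 9.83 to 17.4 and 13.9 CPM (-1.42, adjusted p = 0.12). Iron deficiency genes (29 tested) had a median of 0.10. Their ferric reductase gene FRO2 fell from 821 and 1269 to 108 and 95.7 CPM in wild type and from 539.7 and 661 to 112 and 159 CPM in cml24-2 (1.21, adjusted p = 0.16). Flavonoid genes (12 tested) had a median of 0.43.

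The other lists without a called gene lay closer to the median of all genes, with 3 exceptions. These were shoot photosynthesis (0.83), endodermis and suberin (-0.33) and root hair cells (0.25). By sign, shoot photosynthesis, which holds markers of another tissue, was the most one-sided list, with 25 of 26 genes positive and 1 negative. Endodermis and suberin came next, with 25 of 28 negative and 3 positive, ahead of hypoxia and abscisic acid. Root hair cells had 15 of 22 positive and 7 negative. Medians were -0.13 for ethylene, 0.06 for salicylate and immunity, -0.06 for auxin, -0.06 for heat shock, -0.03 for DNA damage, 0.03 for indole glucosinolates and camalexin, 0.08 for phosphate starvation, -0.10 for nitrate, -0.05 for the circadian clock, and 0.02 for plastid translation and plastid stress. Among cell types, they were 0.12 for root cap, -0.11 for xylem and phloem and 0.01 for dividing cells.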
